A study of Mus musculus with 38 samples.

Results

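Depolarized neurons with a knockdown of the initiation factor eIF4G2 were compared with depolarized neurons that had received no siRNA, in the input fractions of proximity-labelling ribosome profiling (PL-Ribo-seq). The libraries were taken by title, KD_in_Dep (n = 2) against DEP_PSD95_in (n = 3), and make up 5 of the 38 libraries of the series. All were made from primary cortical neurons of CD-1 mouse embryos that expressed TurboID-PSD95 from a lentivirus, a doxycycline-induced biotin ligase fused to the postsynaptic scaffold PSD95. The input was taken from the monosome fraction before streptavidin pulldown, so it holds ribosome footprints (mRNA fragments that ribosomes shield from nuclease) of the whole culture and not of dendrites. Both groups were silenced with tetrodotoxin and DL-AP5 for 2 h, depolarized with 55 mM KCl for 1 h, and treated with cycloheximide for 2 min and biotin for 30 min. The knockdown group had in addition 20 nM of siRNA against eIF4G2 for 72 h. None of the 38 libraries is labelled as given a non-targeting siRNA, so the contrast holds siRNA treatment together with the loss of eIF4G2. The descriptions of the knockdown libraries name the cytosol, but the field for the virus names PSD95-TurboID, and the latter was followed.

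The file headers place the 3 untreated replicates in 3 processing folders, each shared by the resting and depolarized libraries of a replicate number. All knockdown libraries lie in 1 other folder, so that knockdown and folder cannot be told apart. Below, the knockdown libraries and the untreated libraries are each called an experiment, a name that the headers do not give. Because knockdown and folder coincide, 8 further inputs of the same virus were set beside the 5. Resting knockdown inputs (KD_in_Rest, n = 2) and resting untreated inputs (REST_PSD95_in, n = 3) had no KCl. The labels state silencing for the depolarized inputs and not for the resting ones, so a KCl response below may hold silencing as well. Inputs of neurons treated with DHPG, which activates group I metabotropic glutamate receptors (DHPG_in, n = 3), had neither siRNA nor KCl and share the folder of the knockdown libraries. By the study's methods these neurons were silenced in the same way. They were then washed and kept in regular medium before an exposure to DHPG that was shorter than that to KCl. The DHPG inputs were added after the files were seen. A contrast of depolarized knockdown with DHPG inputs holds siRNA, KCl, DHPG and unlike exposure times together. The study describes its replicates as biological, but the labels do not tie these libraries to separate cultures, and p-values measure only the spread between these samples.

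eIF4G2, also called DAP5, resembles the C-terminal part of the scaffold eIF4G1 but lacks the region that binds the cap-binding protein eIF4E, and it takes part in initiation at selected mRNAs, among them mRNAs with upstream open reading frames. Depolarization opens calcium channels, and calcium-dependent kinases act on the transcription factors CREB, SRF and MEF2. Within an hour these switch on immediate early genes such as Fos, Egr1 and Arc, followed by genes for secreted and synaptic proteins. A footprint count reflects the amount of an mRNA and its translation together.

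The 5 depolarized libraries held 5906281 to 22587735 counted reads, of which 2292934 to 8795782 lay in the coding sequence (CDS) of the longest transcript of a gene. The knockdown libraries had the fewest counted reads (8791836 and 5906281 in replicates 1 and 2), but in CDS counts knockdown replicate 1 (3857127) exceeded untreated replicate 1 (2345863). Levels below are CDS counts scaled to library size (CPM), and differences are log2 values with SE from edgeR's quasi-likelihood fit of 10 inputs. FDR is the Benjamini-Hochberg adjusted p over 12886 genes, and a gene is said to have changed where it was under 0.05. Mitochondrially encoded genes took 0.597% to 0.615% of CDS counts in the depolarized knockdown inputs, 0.190% to 0.368% in the untreated ones and 0.619% to 0.672% in the DHPG inputs. The share of 3′ UTR counts was 2.09% to 2.11%, 1.47% to 1.61% and 2.16% to 2.26% in the same order, so on both measures the depolarized knockdown inputs lay nearer to the DHPG inputs of their own folder. The resting knockdown inputs, of the same folder, had a mitochondrial share of 0.226% to 0.244%, within the range of the depolarized untreated inputs and below that of the DHPG inputs, and a 3′ UTR share of 1.97% to 2.07%. The part of these differences in the results below was not tested.

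The targeted gene had fewer footprints in the knockdown inputs. Eif4g2 (CDS at chr7:111072692-111081547 of mm10, minus strand) was at 331 and 322 CPM in the depolarized knockdown inputs and at 586, 523 and 769 CPM in the untreated ones. The ranges did not overlap, and the level was 1.90-fold lower (log2 difference -0.93, SE 0.16, FDR = 0.00158). At rest it was at 284 CPM in both knockdown inputs against 531 to 575 CPM (log2 difference -0.99, FDR = 0.000926). The DHPG inputs lay between, at 465 to 473 CPM, and the depolarized knockdown inputs were lower than these by a log2 difference of -0.51 (FDR = 0.0101). Without replicate 2 of the depolarized knockdown the difference was -0.89 with an FDR of 0.0523.

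Across all genes tested, 1679 (13.0%) differed between depolarized knockdown and untreated inputs, 786 higher (6.10%) and 893 lower (6.93%), with a median log2 difference of -0.05 over all genes. Of the genes that were higher, 433 differed at least 2-fold, and of those that were lower, 402. With either knockdown library left out the count was far smaller, 374 genes without replicate 1 and 297 without replicate 2, and in fits of 20 TurboID-PSD95 libraries or of the 5 libraries alone it was 697 and 856. In the resting inputs, which share no library with the depolarized ones, 1339 genes (10.4%) differed, 556 higher (4.31%) and 783 lower (6.08%), and the count was 207 and 211 without resting knockdown replicate 1 or 2 and 695 and 801 without resting untreated replicate 2 or 3. Of the 786 genes higher after depolarization, 311 were also called higher at rest (of 556 called there) and 736 had the same sign. Of the 893 lower genes, 432 were called lower at rest (of 783) and 874 had the same sign. Both contrasts came from 1 fit and set the folder of the knockdown against those of the untreated inputs. Shared calls and signs are therefore not independent evidence, and the same-sign share over all genes is not given here. A single gene described below kept its call with either depolarized knockdown library left out only where this is said.

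**Figure D1:**
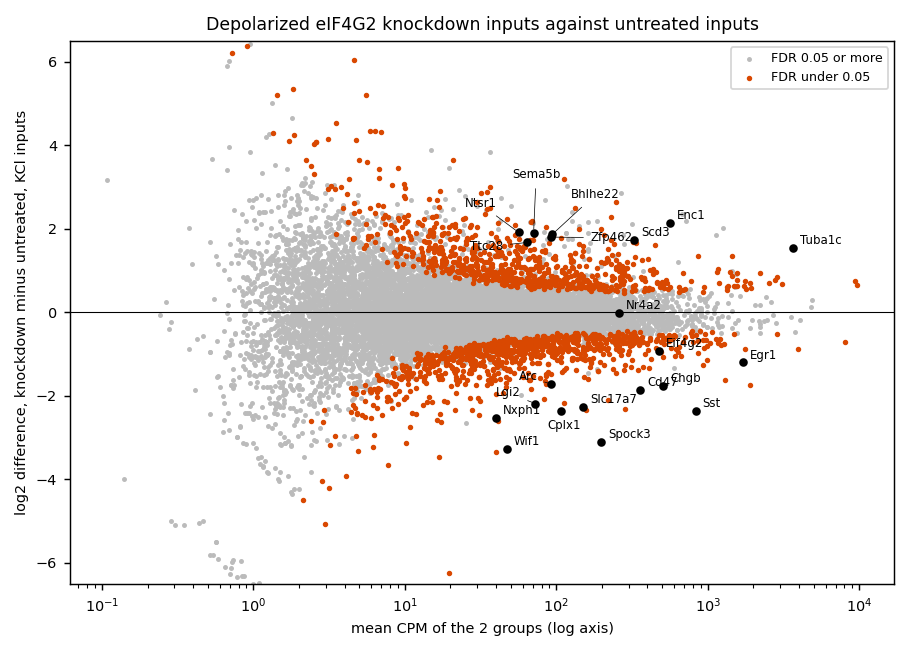
Log2 difference between depolarized knockdown and untreated inputs (y axis) against the mean CPM of both groups (x axis, log scale) for each gene tested. Orange points are the 786 higher and 893 lower genes with an FDR under 0.05, black points are named in the text, and 12 genes lie outside the drawn range.

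The 8 higher and 8 lower genes with the smallest p, picked among those whose groups did not overlap, are described first. Enc1, which was higher, encodes an actin-binding adaptor of a ubiquitin ligase (CDS at chr13:97244984-97246753, plus strand). It was at 929 and 905 CPM in the depolarized knockdown inputs and at 238, 193 and 198 CPM in the untreated ones. The groups did not overlap, and the level was 4.41-fold higher (log2 difference 2.14, SE 0.18, FDR = 3.79e-06). It was as high in the resting knockdown inputs (901 and 969 CPM) and in the DHPG inputs (857 to 872 CPM), from which the depolarized knockdown differed by 0.10 (FDR = 0.66).

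The alpha-tubulin gene Tuba1c was at 4764 and 6063 CPM in the depolarized knockdown, at 1856, 1445 and 2298 CPM in the untreated inputs and at 5437 to 5654 CPM in the DHPG inputs. It was 2.92-fold higher than untreated (FDR = 6.02e-05) and not distinguished from DHPG (log2 difference -0.01, FDR = 0.966). Near-identical tubulin copies may share its reads.

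Sema5b, a semaphorin that guides axons, stood apart from the other genes of this group. It was at 101 and 122 CPM in the depolarized knockdown inputs, at 29.9, 24.7 and 35.0 CPM in the untreated ones and at 18.8 to 25.4 CPM in the DHPG inputs. The knockdown was 3.75-fold above untreated (log2 difference 1.91, SE 0.19, FDR = 1.66e-05) and above DHPG by a log2 difference of 2.33 (FDR = 3.89e-08). It was also high in the resting knockdown inputs, at 88.3 and 94.0 CPM against 42.4 to 47.9 CPM.

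The other 5 genes named for an increase were Scd3, a fatty acid desaturase (3.32-fold), the zinc finger gene Zfp462 (3.48-fold), Bhlhe22, a transcription factor of cortical neurons (3.64-fold), Ttc28 (3.18-fold) and Ntsr1, a neurotensin receptor of deep-layer neurons (3.76-fold). Scd3 was at 472 and 522 CPM against 146, 166 and 139 CPM. It had no 5′ UTR counts in any of the 5 depolarized libraries, and whether related desaturase genes share its reads was not tested. Against the DHPG inputs the log2 differences of these 5 genes were 0.32, 0.34, -0.45, 0.49 and -0.51, in that order, of which the last 3 passed the test, and each was smaller in size than the difference from the untreated inputs.

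Of the genes that were lower, Spock3, a secreted proteoglycan (CDS at chr8:62951800-63355381, plus strand), was at 47.5 and 33.0 CPM in the depolarized knockdown and at 390, 346 and 323 CPM in the untreated inputs, 8.61-fold lower (log2 difference -3.11, SE 0.22, FDR = 1.52e-06). The DHPG inputs lay between, at 155 to 177 CPM, and the knockdown was below these as well (log2 difference -2.02, FDR = 7.09e-07).

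Chgb, a granin stored in dense-core vesicles, was at 226 and 233 CPM against 795, 769 and 796 CPM, 3.41-fold lower (FDR = 3.18e-06). Cplx1, a complexin that controls vesicle fusion, was at 34.8 and 34.7 CPM against 166, 207 and 170 CPM, 5.19-fold lower (FDR = 6.44e-06). Slc17a7, the vesicular glutamate transporter VGLUT1, was at 50.3 and 53.3 CPM against 324, 237 and 191 CPM, 4.80-fold lower (FDR = 1.66e-05). All 3 genes were also lower in the knockdown than in the DHPG inputs, by log2 differences of -0.97, -1.50 and -1.60.

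The remaining genes of this group were Cd47 (3.62-fold lower), which encodes a surface protein that inhibits phagocytosis, the neurexin ligand Nxph1 (5.79-fold), the secreted Lgi2 (4.56-fold) and the Wnt inhibitor Wif1 (9.66-fold). Each was lower than in the DHPG inputs too, with log2 differences of -0.82, -2.68, -1.61 and -2.15. All 8 genes of each direction were called the same way at rest, and each kept its call after depolarization with any 1 library left out and under every other alternative that kept the untreated inputs as the control. They were picked by their p and ranges in these same libraries, so the kept calls are not independent evidence. The contrasts with DHPG inputs reuse the 2 knockdown libraries by which the genes were picked. With DHPG inputs as the control, only Sema5b and Ttc28 of the 8 higher genes were called higher, Bhlhe22 and Ntsr1 were called lower, and Enc1, Tuba1c, Scd3 and Zfp462 did not pass.

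**Figure D2:**
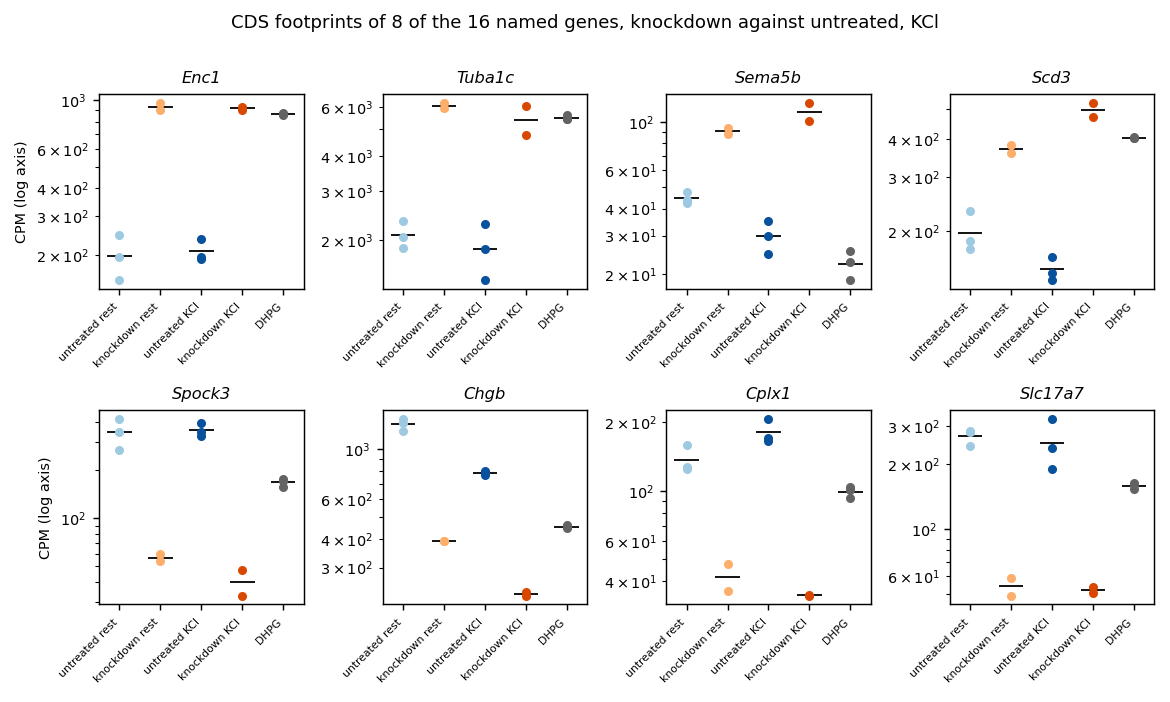
CPM (log axis) of 8 named genes in each input library, with 1 point per library and a line at the group mean, for untreated and knockdown inputs at rest and after KCl and for DHPG inputs. In the upper row the knockdown inputs lie above the untreated ones, and the DHPG inputs lie close to the knockdown for Enc1, Tuba1c and Scd3 but at 18.8 to 25.4 CPM for Sema5b, and in the lower row the DHPG inputs lie between knockdown and untreated inputs.

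Activity-induced genes were described in 3 lists, 33 early transcription factors, 29 signalling brakes (phosphatases, kinases and inhibitors induced by activity) and 28 synaptic and secreted effectors. In the untreated inputs KCl raised 23, 12 and 4 members of these lists, against 6.15% of all genes higher and 13.2% changed in either direction. In the knockdown inputs KCl raised 20, 11 and 3 members, against 2.96% higher and 7.19% changed, so the KCl response was present in the knockdown experiment. With the replicate number as a block within each experiment, 19, 9 and 3 of these kept their call in the knockdown (Nfil3, Gem and Nfkbia did not) and 23, 11 and 4 in the untreated inputs (Dusp10 did not). Without resting knockdown replicate 1 or 2 KCl raised 14, 7 and 2 and 15, 7 and 2 members in the knockdown, against 0.571% and 0.578% of all genes, and without depolarized knockdown replicate 1 or 2 it raised 17, 8 and 2 and 16, 8 and 3, against 0.858% and 0.665%. Between the depolarized groups no early factor and no brake was higher in the knockdown, while 8 of 33 early factors and 3 of 29 brakes were lower, against 6.93% of all genes, a share that the count of brakes lay near. Of 27 effectors tested (Amigo3 was too low), 1 was higher and 11 were lower. The median log2 differences were -0.49, -0.52 and -0.51, against -0.05 over all genes. In 17, 17 and 15 members of the 3 lists both knockdown inputs lay below all 3 untreated ones, which held for 23.7% of all genes, and in 2, 2 and 3 members both lay above, which held for 20.6%. The medians at rest were -0.66, -0.35 and -0.70, with 9, 4 and 9 members lower and 2, 0 and 1 higher, against 6.08% and 4.31% of all genes.

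These calls leaned on having 2 knockdown libraries. Without either library of the depolarized knockdown most of these members were no longer called lower, and the same held for most lower genes over all. Under the alternatives that kept the untreated inputs, the list medians ran from -0.58 to -0.30, -0.55 to -0.38 and -0.75 to -0.28. In the fit of 20 libraries 2, 0 and 8 members were lower, against 279 of 13180 genes. Without untreated replicate 2 the counts were 6, 2 and 10, against 715 of 12857 genes. At rest, most of the 9, 4 and 9 lower members lost their call without either resting knockdown library, and so did most lower genes over all. Without resting untreated replicate 2 the counts were 7, 1 and 8, against 375 of 12762 genes.

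Among the early transcription factors, Egr1, a zinc finger factor, was at 1028 and 1044 CPM in the depolarized knockdown and at 1936, 2781 and 2457 CPM in the untreated inputs. It was 2.30-fold lower (log2 difference -1.20, SE 0.22, FDR = 0.00224), with FDR = 0.0519 and 0.0562 without knockdown replicate 1 or 2. Cebpb, a factor that binds as a dimer of leucine zippers, was at 49.3 and 48.6 CPM against 148, 128 and 134 CPM, 2.77-fold lower (log2 difference -1.47, SE 0.24, FDR = 0.00102). It was the only early factor that stayed called when either knockdown library was left out.

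The AP-1 subunit gene Junb was at 696 and 738 CPM against 851, 1616 and 1313 CPM (1.75-fold lower, FDR = 0.0248), and Jund fell by 2.01-fold (FDR = 0.0189). Without untreated replicate 2 their FDR was 0.067 and 0.0612, and without untreated replicate 3 that of Junb was 0.0526. Fos was at 1796 and 1852 CPM against 2080, 2881 and 2785 CPM and did not pass the test, although its groups did not overlap (log2 difference -0.49, SE 0.32, FDR = 0.339). Fosb and Jun did not pass it either, with log2 differences of -0.54 and -1.34. For Jun, untreated replicate 2 was at 1583 CPM and the other untreated inputs were at 457 and 534 CPM, against 334 and 344 CPM in the knockdown, and without that library the difference was -0.55 with an FDR of 0.0253.

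The other early factors that were lower were Egr4 (2.40-fold), the stress-responsive Atf3 (3.48-fold), Ier2 (1.76-fold) and the antiproliferative gene Btg2 (2.15-fold). Egr4 had an FDR of 0.0579 without untreated replicate 2. Atf3 was at 18.3 and 23.9 CPM against 47.2, 100.4 and 69.8 CPM. Egr2, Egr3, Npas4, a neuron-specific factor that calcium induces, and Nr4a1, an orphan nuclear receptor, did not pass the test. Without knockdown replicate 1 or 2 the FDR of Egr4, Atf3, Ier2, Btg2, Junb and Jund lay between 0.0639 and 0.188. Npas4 was at 297 and 322 CPM, within the untreated range of 206 to 395 CPM (log2 difference 0.02, SE 0.20, FDR = 0.963). Egr2 was at 166 and 159 CPM against 185 to 192 CPM (log2 difference -0.21, SE 0.27, FDR = 0.649).

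**Figure D3:**
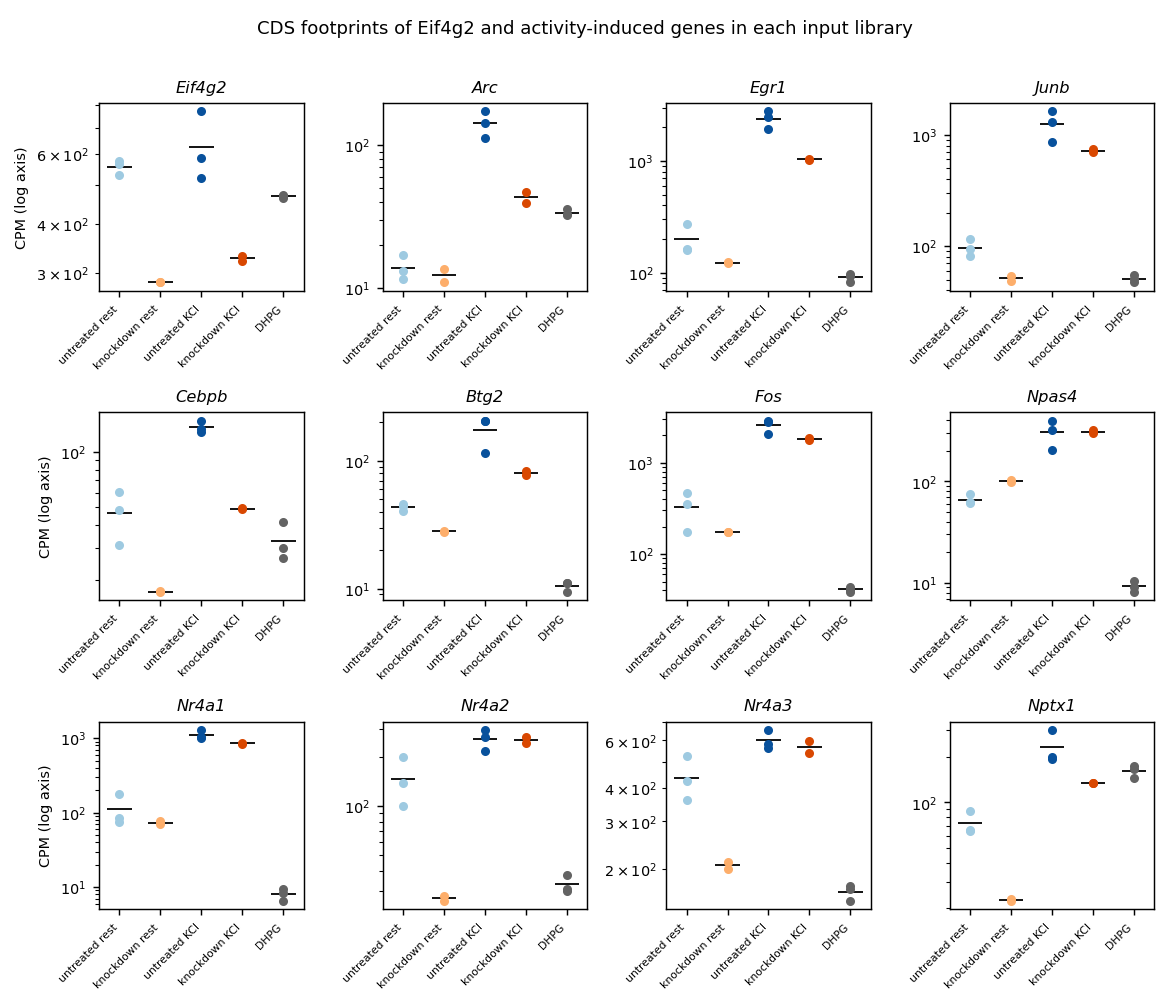
CPM (log axis) of Eif4g2 and 11 activity-induced genes in each input library, 1 point per library and a line at the group mean. Arc, Egr1, Junb, Cebpb, Btg2 and Nptx1 lie lower in the knockdown than in the untreated inputs after KCl, Npas4 and Nr4a2 overlap there, and Nr4a2 and Nr4a3 lie lower in the knockdown at rest.

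Of the signalling brakes, Spry2 and Spry4, which restrain receptor tyrosine kinase signalling, and the stress-induced Gadd45g were lower by 1.94-fold, 2.12-fold and 1.57-fold (FDR = 0.00973, 0.0161 and 0.033). None of the 3 was still called when either knockdown library was left out (FDR between 0.0761 and 0.273), and Gadd45g had an FDR of 0.0641 and 0.0996 without untreated replicate 2 or 3. The MAP kinase phosphatase Dusp1 was at 417 and 466 CPM against 518, 620 and 586 CPM, a log2 difference of -0.37 that did not pass the test (FDR = 0.11). The kinases Sik1 and Plk2 had differences of 0.28 and 0.14 that did not pass it either. Sik1 was at 289 and 339 CPM against 297, 268 and 217 CPM.

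Among the effectors, Arc, which controls AMPA receptor endocytosis at active synapses (CDS at chr15:74671182-74672372, minus strand), was at 39.4 and 46.8 CPM in the depolarized knockdown and at 112, 171 and 141 CPM in the untreated inputs. The ranges did not overlap, and the level was 3.29-fold lower (log2 difference -1.72, SE 0.23, FDR = 0.0003). At rest the groups overlapped, at 11.0 and 13.6 CPM against 13.1, 11.5 and 17.0 CPM (log2 difference -0.17, FDR = 0.725). The DHPG inputs were at 32.2 to 35.5 CPM and could not be distinguished from the depolarized knockdown (log2 difference 0.37, FDR = 0.183). For most early factors this did not hold. Against the DHPG inputs 23 early factors were higher in the depolarized knockdown and 1 was lower (median 1.95). Of the brakes 15 were higher and 2 lower (median 0.72), and of the effectors 7 and 3 (median 0.04). Over all genes 15.0% were higher and 15.1% lower. The resting knockdown too had 9 early factors above the DHPG inputs and 3 below (median 0.20), against 8.79% and 6.24% of all genes. Fos was at 38.9 to 43.3 CPM in the DHPG inputs, below the 174 to 467 CPM of the resting untreated inputs. Egr3 lay the other way, at 52.9 to 62.0 CPM against 11.4 to 13.4 CPM.

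Arc rose with KCl by a log2 difference of 1.81 in the knockdown experiment (SE 0.26, FDR = 0.000578) and of 3.36 in the untreated one (FDR = 8.07e-08). The difference between the responses was -1.55 (SE 0.33) with an FDR of 0.57, and it passed the threshold with no filter on low counts (FDR = 0.0393), with the likelihood ratio test (FDR = 0.0446) and with DESeq2 (FDR = 0.0249).

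Vgf, the gene of a secreted peptide precursor, was at 834 and 912 CPM against 2979, 3468 and 2421 CPM after KCl (3.38-fold lower, FDR = 0.00698), and the DHPG inputs were at 824 to 896 CPM. Its FDR was 0.0531 without untreated replicate 2 and 0.0676 and 0.0625 without knockdown replicate 1 or 2. Scg2, a granin, was at 1265 and 1193 CPM against 2258, 2239 and 2375 CPM (1.85-fold lower, FDR = 0.000906). Sst, the somatostatin gene of interneurons, was at 269 CPM in both knockdown inputs against 1568, 1553 and 1056 CPM (5.16-fold lower, FDR = 0.000288), and the DHPG inputs lay between, at 437 to 489 CPM. Arc, Scg2 and Sst were the 3 effectors still called lower when either knockdown library was left out.

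The neurotrophin gene Bdnf was at 46.8 and 50.7 CPM against 105, 82.5 and 75.3 CPM (1.78-fold lower, FDR = 0.0198), and Nptx1, a pentraxin that gathers AMPA receptors, was at 134 and 135 CPM against 299, 198 and 192 CPM (1.70-fold lower, FDR = 0.0239). The proprotein convertase Pcsk1 fell by 1.83-fold, and the peptide genes Tac1, Crh and Adcyap1 by 5.44-fold, 10.2-fold and 5.06-fold, with FDR between 0.00966 and 0.0421. The log2 difference of Crh was -3.35 and became -4.40 and -2.87 without knockdown replicate 1 or 2 and -2.66 without untreated replicate 2, and that of Adcyap1 went from -2.34 to -1.67 without untreated replicate 2. For Cort, which encodes cortistatin, 3 and 0 counts in the knockdown stood against 173, 93 and 194 counts (FDR = 0.0154), and no fold is given for counts this low. Without knockdown replicate 1 or 2 the FDR of these 7 genes lay between 0.0791 and 0.285, and that of Pcsk1 was 0.0769 without untreated replicate 1. The only effector that was higher was Pcdh8, a protocadherin, at 1220 and 1229 CPM against 518, 425 and 524 CPM (2.52-fold, FDR = 0.00124), and it kept its call with either knockdown library left out.

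Interneuron markers moved with these peptide genes. Of 10 markers tested, 5 were lower and none was higher in the depolarized knockdown, against 6.93% and 6.10% of all genes, and the summed level of the list was 986 to 995 CPM against 2451 to 3273 CPM in the untreated and 1737 to 1857 CPM in the DHPG inputs. Sst belongs to both lists. Gad1 and Gad2, the enzymes of GABA synthesis, were 2.51-fold and 2.22-fold lower (FDR = 0.000376 and 0.000799), also called with either knockdown library left out. In bulk samples fewer cells of a type and less RNA per cell cannot be told apart, and the part of the interneuron markers in the peptide results was not tested.

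Over all genes, the KCl response differed between the experiments for 1 gene (0.00776% of those tested), with 708 genes at an unadjusted p under 0.05. By the other tools run, it was 6 genes with the likelihood ratio test and 15 with DESeq2. The gene was Nr4a2 (NURR1), an orphan nuclear receptor (CDS at chr2:57108156-57112439, minus strand). After KCl it was at 266 and 246 CPM in the knockdown and at 218, 293 and 268 CPM in the untreated inputs, which overlap (log2 difference -0.02, SE 0.22, FDR = 0.973). At rest it was at 28.0 and 26.1 CPM in the knockdown against 100.1, 200.9 and 139 CPM (log2 difference -2.45, SE 0.25, FDR = 4.06e-05).

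The KCl response of Nr4a2 was thus 3.26 in the knockdown experiment and 0.82 in the untreated one, and differed by 2.44 (SE 0.32, FDR = 0.0126). The DHPG inputs, at 30.2 to 37.7 CPM, were near the resting knockdown. The difference stayed at 2.37 to 2.52 but its FDR was over 0.05 without either depolarized knockdown library (0.227 and 0.122), without either resting knockdown library (0.185 and 0.279), or without untreated depolarized replicate 2 or 3 (0.0692 and 0.0893). Nr4a3, a relative, had a similar order of groups, at 538 and 595 CPM against 564 to 654 CPM after KCl and at 213 and 199 CPM against 359 to 524 CPM at rest, and its difference of responses of 1.02 did not pass the test (FDR = 0.57).

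**Figure D4:**
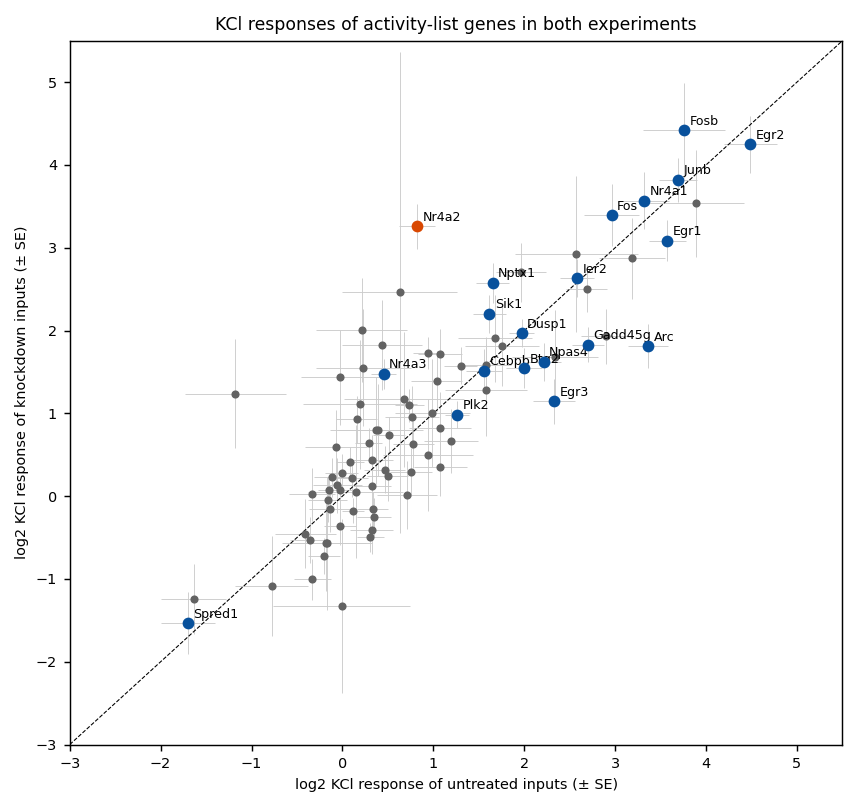
Log2 KCl response of each tested activity-list gene in the untreated inputs (x axis) and the knockdown inputs (y axis), with bars for the SE and a dashed line of equal response. The orange point is Nr4a2, the only gene whose responses differed at an FDR under 0.05, blue points are other labelled genes, and Arc lies below the line at 3.36 and 1.81.

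CREB binds near the start of many activity-induced genes, and the 300-base promoter windows of RefSeq (GRCm38.p6, from 250 bases before to 50 after a start) were searched for the full cyclic AMP response element TGACGTCA, which reads the same on both strands. It occurred in 3.76% of 9935 tested genes with a window, in 2 of 26 early factors, 4 of 23 brakes and 5 of 18 effectors. A gene was counted where any of its windows held the element. Arc, Egr1, Vgf and Nptx1 had no window. The CArG box of SRF occurred in 1.61% of the tested genes with a window and in 2, 2 and 0 members of the 3 lists. Shown first are the elements of 4 genes that were lower in the depolarized knockdown and then of 3 that KCl raised in both experiments and that did not pass the test between them, with the element in capitals.

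Btg2, chr1:134079303-134079332, minus strand: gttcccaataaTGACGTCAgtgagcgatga
Scg2, chr1:79440076-79440105, minus strand: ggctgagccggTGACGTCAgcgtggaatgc
Pcsk1, chr13:75089768-75089797, plus strand: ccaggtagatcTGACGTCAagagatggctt
Sst, chr16:23890874-23890903, minus strand: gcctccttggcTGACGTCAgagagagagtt
Dusp1, chr17:26508597-26508626, minus strand: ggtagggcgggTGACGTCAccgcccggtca
Plk2, chr13:110394971-110395000, plus strand: agcgctcgccgTGACGTCAcgaggccccgc
Ppp1r15a, chr7:45526262-45526291, minus strand: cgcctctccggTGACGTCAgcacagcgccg

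The genes shown were picked by their test results from those with the element, and Arl4d, Cartpt, Errfi1 and Maff, which also hold it, are not shown. As picked, genes with the same 8 letters fell on either side of the test. Btg2 was at 83.9 and 78.1 CPM in the depolarized knockdown against 114, 206 and 204 CPM, whereas Plk2 was at 619 and 580 CPM against 549, 529 and 566 CPM. Ppp1r15a, which directs a phosphatase to eIF2alpha, was at 46.5 and 36.4 CPM against 53.7, 57.3 and 62.2 CPM (log2 difference -0.46, SE 0.30, FDR = 0.324). A match is a description of these windows and not a bound site.

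Since eIF4G2 acts at initiation, counts in 5′ UTRs were compared with those in CDSs. The 5′ UTR share of 5′ UTR plus CDS counts was 20.5% and 21.4% in the depolarized knockdown (21.0% ± 0.615, SD, n = 2) and 22.4%, 27.6% and 23.8% in the untreated inputs (24.6% ± 2.68, n = 3). The knockdown inputs were lower without overlap, but the difference of -3.59 percentage points did not pass an exact two-sided permutation test (p = 0.2), for which 10 assignments allow no p below 0.1. Without untreated replicate 2 it was -2.10 points. At rest the share was 15.5% in both knockdown inputs and 16.6% to 22.5% in the untreated ones, and the DHPG inputs were at 15.7% to 16.8%. Footprints were counted at their 5′ ends with no offset, so that a ribosome at or just past a start codon was counted upstream of it.

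Gene by gene, 9306 genes had at least 20 counts of 5′ UTR plus CDS in each depolarized input. In 24.8% of them the 5′ UTR share of both knockdown inputs lay below all 3 untreated ones, and in 7.22% both lay above. Of 17 such genes of upstream reading frames and the integrated stress response, 8 lay below and 1 above, and among those below was Ppp1r15a, at 62.0% and 65.0% in the knockdown against 72.5%, 71.0% and 70.1%. Of 31 early factors 9 lay below and 5 above, Egr1 being above, at 33.0% and 37.4% against 26.1% to 29.4%. These shares were not tested. In CDS counts, of 18 genes of upstream reading frames and the stress response, 2 were lower, near the 6.93% of all genes, and none was higher (median log2 difference -0.28). These were Ddit3 (2.92-fold, FDR = 0.0106) and Trib3 (4.34-fold, FDR = 0.0267), factors induced by stress. Without knockdown replicate 1 or 2 the FDR was 0.135 and 0.0873 for Ddit3 and 0.0625 and 0.218 for Trib3, and that of Trib3 was 0.0527 without untreated replicate 2. The log2 difference of Trib3 was -2.12 and became -3.23 and -1.59 without knockdown replicate 1 or 2. Ddit3 was at 11.4 and 13.4 CPM against 33.4, 41.0 and 34.3 CPM. Of the genes the study used for reporters with upstream reading frames, 18 were tested and none passed (median -0.05), against 13.0% of all genes. Their summed level was only 106.5 to 136.2 CPM in the depolarized knockdown and 80.6 to 122.5 CPM in the untreated inputs. The simulated rates given below do not cover genes of low counts. The set pools genes whose CDS translation the study found raised or lowered in dendrites, which inputs of the whole culture do not single out. The study chose these genes with data of this series, so their direction would not be independent evidence.

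Of 15 genes of the eIF4G family and its partners, Eif4g2 was lower and Pabpc1, a poly(A)-binding protein, was higher (1.55-fold, FDR = 0.0384), at 99.9 and 107 CPM against 61.5, 51.1 and 87.6 CPM. Of 30 other initiation factors, Eif3f was higher (1.83-fold, FDR = 0.00234) and Eif1, which guards start codon selection, was lower (1.74-fold, FDR = 0.0471), with a median of 0.02. In both lists 1 gene was called in each direction, against 6.10% of all genes higher and 6.93% lower. Pabpc1 and Eif1 had FDR between 0.16 and 0.237 without knockdown replicate 1 or 2 and 0.12 and 0.0952 without untreated replicate 2, Eif1 had 0.124 without untreated replicate 3, and Eif3f had 0.0522 without knockdown replicate 1. Of 74 ribosomal protein genes tested, 9 were higher, against 6.10% of all genes, and none was lower (median 0.28), with Rpl14 and Rplp1 at 1.65-fold and 1.85-fold. Most of the 9 lost their call without either knockdown library, and so did most higher genes over all. Genes of this family have near-identical copies and are uncertain.

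Of 33 presynaptic genes, 15 were lower and 2 higher in the depolarized knockdown, against 6.93% and 6.10% of all genes, with a median of -0.54, and at rest 13 were lower and 1 higher, against 6.08% and 4.31%, with a median of -0.56. Pclo, an active zone scaffold, was at 205 and 224 CPM against 610, 471 and 525 CPM (2.48-fold lower, FDR = 0.000115, also called with either knockdown library left out), and Cplx1 and Slc17a7 belong to this list. Pclo was at 590 CPM in each DHPG input, and against the DHPG inputs 22 presynaptic genes were lower and none higher, beside 15.1% of all genes lower and 15.0% higher. In both contrasts most lower presynaptic genes lost their call without either knockdown library, and so did most lower genes over all. Under the alternatives that kept the untreated inputs, the median ran from -0.64 to -0.47, and at rest from -0.61 to -0.47. At rest 8 were lower without untreated replicate 2 or 3, against 375 of 12762 and 484 of 12892 genes.

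Of 35 postsynaptic genes, 4 were lower and 1 was higher (median -0.09), near the 6.93% and 6.10% of all genes. The inhibitory scaffold Gphn was 1.76-fold lower (FDR = 0.00515), the spine protein Ppp1r9b was 1.92-fold lower (FDR = 0.0103), and the kinase subunit Camk2b was 1.51-fold higher (FDR = 0.0124). Of 10 markers of neurons in general 4 were lower and none higher (median -0.44, with 9 of 10 differences below 0), with Nefl and Nefm, the neurofilament genes, at 2.21-fold and 2.09-fold and the vesicle calcium sensor Syt1 at 1.89-fold. The summed level of these markers was 7338 to 7401 CPM against 6962 to 8386 CPM, so markers of neurons were present in both groups. Without either knockdown library most of the lower markers were no longer called, and the same held for most lower genes over all. Without untreated replicate 2 the count was 2, against 715 of 12857 genes. Of 10 excitatory markers 3 were higher and 2 lower, with Slc17a6 (VGLUT2) 2.30-fold higher (FDR = 0.000649) where Slc17a7 was lower. Slc17a6 and Nefl kept their calls with either knockdown library left out.

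Of 28 genes of cholesterol and lipid synthesis, 12 were higher and 1 was lower in the depolarized knockdown (median 0.45), against 6.10% and 6.93% of all genes, with 8 higher and 1 lower at rest, against 4.31% and 6.08%. Sqle, which makes squalene epoxide, was at 373 and 320 CPM against 203, 149 and 146 CPM (2.10-fold, FDR = 0.000662). The desaturase gene Scd2 was 2.05-fold higher (FDR = 0.000374). Against the DHPG inputs 4 were higher and 6 lower, near the 15.0% and 15.1% of all genes, with a median of -0.06. In both contrasts most higher members lost their call without either knockdown library, and so did most higher genes over all. After depolarization Sqle and Scd2 kept their calls with either knockdown library left out. Under the alternatives that kept the untreated inputs, the median ran from 0.40 to 0.54, and at rest from 0.31 to 0.42.

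Mitochondrially encoded genes were higher in the depolarized knockdown. Of 13, 7 rose, against 6.10% of all genes, and none fell (median 1.32), while at rest none passed in either direction (median 0.11). The cytochrome oxidase subunit gene mt-Co3 was at 662 and 695 CPM in the depolarized knockdown, at 284, 168 and 226 CPM in the untreated and at 670 to 765 CPM in the DHPG inputs (3.03-fold against untreated, FDR = 0.00281). The difference of its KCl responses did not pass the test (0.93, FDR = 0.875). With untreated Pan-TurboID inputs added to the fit none of the 13 passed, against 763 of 13113 genes higher. Without either knockdown library most of the 7 lost their call, and so did most higher genes over all, while mt-Co3 kept its call.

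**Figure D5:**
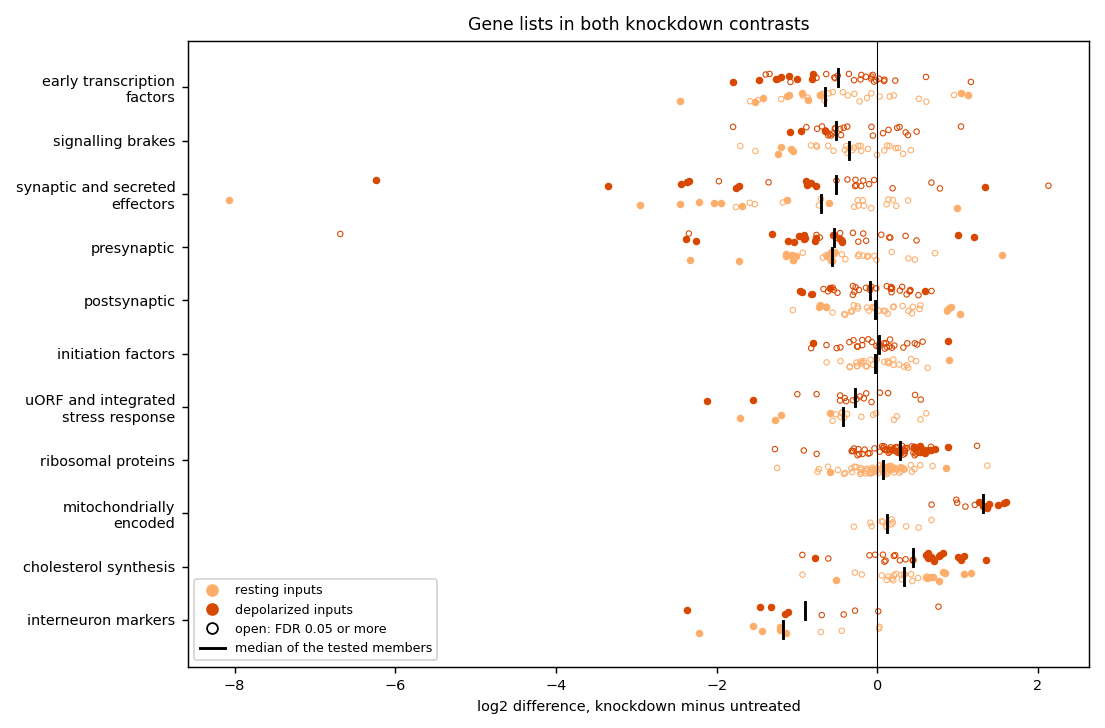
Log2 difference between knockdown and untreated inputs (x axis) of the tested members of 11 gene lists, in depolarized inputs (dark, upper of each pair) and resting inputs (light, lower), with filled points for an FDR under 0.05 and a bar at the median. The activity lists, presynaptic genes and interneuron markers lie to the left in both contrasts, mitochondrially encoded genes lie to the right after KCl (median 1.32) and near 0 at rest (0.11), and points below -5 belong to genes with libraries near 0 counts.

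Markers of other cells were also compared. Of 13 microglial markers 8 were high enough to test, of which 5 were higher and none lower, with 4 higher and none lower at rest, against 6.10% and 4.31% of all genes higher. No median is given because several of them had libraries at or near 0. After depolarization these calls did not hold without either knockdown library, where most higher genes over all lost theirs too. Without untreated replicate 2 or 3 the counts were 3 and 2, against 528 of 12857 and 794 of 12770 genes higher. At rest most of the calls were lost without either resting knockdown library, as they were over all genes. Without resting untreated replicate 1 the count was 2, against 673 of 12760 genes higher. Their summed level was 71.1 to 72.7 CPM against 12.6 to 27.4 CPM in the untreated and 16.4 to 17.8 CPM in the DHPG inputs, and at rest 67.0 to 72.9 CPM against 17.2 to 30.3 CPM. P2ry12 was at 0 in both knockdown inputs, and Cx3cr1, C1qb and Fcer1g were at 0 in all 3 untreated ones. C1qa had 26 and 33 counts against 0, 9 and 4, and Tyrobp 13 and 9 counts against 0, 0 and 3.

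The counts of markers after depolarization that follow stand against 6.10% of all genes higher and 6.93% lower. Of 12 markers of progenitor and cycling cells 2 were higher, Cdk1 (3.36-fold) and Ccnb1 (2.90-fold), and the summed level was 2337 to 2351 CPM against 500 to 1261 CPM in the untreated and 326 to 340 CPM in the DHPG inputs. At rest none of the 12 was higher and 3 were lower (median -0.49), against 4.31% and 6.08% of all genes. The summed level at rest, 1372 to 1427 CPM, lay within the untreated range of 607 to 2035 CPM. Of 12 astrocyte markers tested, 2 were higher and 1 lower, with Gja1 (connexin 43) and Clu 3.29-fold and 1.68-fold higher and the glutamate transporter Slc1a2 2.91-fold lower, and Gjb6 was at 0 in every depolarized library. Without untreated replicate 2 the FDR of Ccnb1, Gja1 and Clu was 0.135, 0.143 and 0.127, without replicate 1 that of Gja1 and Clu was 0.126 and 0.0853, and without replicate 3 that of Ccnb1 was 0.0573. The summed astrocyte level was 1899 to 1903 CPM against 1261 to 1611 CPM, and 443 to 464 CPM in the DHPG inputs. Of 11 oligodendrocyte markers tested 1 was higher and none was lower, with Mog and Mobp at 0 in both groups. Of 8 fibroblast and mural markers tested Fn1 was higher (3.16-fold), and neither of 2 endothelial markers passed. The part of these markers in the results above was not tested.

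Of the other lists, 2 of 20 heat shock genes were higher, against 6.10% of all genes, namely Hsph1 (1.72-fold, FDR = 0.0136) and Hsp90ab1 (1.92-fold, FDR = 0.0345). Of 32 interferon-induced genes 10 were high enough to test, of which 2 were higher and none lower, against 6.10% and 6.93% of all genes. Among the higher was the RNA sensor Ddx58, with 38 and 21 counts against 0, 1 and 13 (FDR = 0.0153). Of 18 targets of p53, 1 was higher and 1 lower, near the same shares of all genes. Gtse1 had 21.1 and 27.3 CPM against 3.47, 4.54 and 11.2 CPM (FDR = 0.00689). Without knockdown replicate 2 Hsph1, Hsp90ab1, Ddx58 and Gtse1 did not pass, with FDR between 0.0873 and 0.133, and without knockdown replicate 1 Hsph1, Hsp90ab1 and Ddx58 did not, with FDR between 0.0902 and 0.165. Without untreated replicate 2 or 3 Hsp90ab1 did not pass (FDR = 0.0786 and 0.0754).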

How the data were processed

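The deposited files hold whole-number counts of footprint 5′ ends per exon segment. Per the methods and file headers, the authors trimmed, demultiplexed and aligned reads to mm10 with Rsubread, removed ribosomal and duplicate reads, and counted with plastid at no offset, in segments of UCSC known genes. The version of plastid and its use of strand are not given in the sources used here. Duplicate removal can flatten short, strongly translated regions, and overlapping genes share reads.

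Here CDS counts of the transcript with the longest CDS and UTRs were summed per gene. Of 67238 coding transcripts 66664 (99.1%) matched GENCODE M21 symbols and 574 were left out, which gave 22375 genes. The 10 TurboID-PSD95 inputs were fitted with edgeR 4.0.16 in R 4.3.3 (quasi-likelihood F test, robust, TMM, filterByExpr, 4 group means, Benjamini-Hochberg FDR of 0.05). The SE is the log2 difference over the root of F, and CPM uses TMM factors over 13 inputs. Named are Eif4g2, the 8 genes a direction with the smallest p, at least 10 CPM and no overlap of groups, members of the activity lists past a test, and 3 members of each other list, with any further gene chosen after its values were seen. Some genes under this rule are not reported here. The members and lists were chosen with earlier results of these data known.

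Untreated depolarized and resting libraries of a replicate number share a processing folder, so the number pairs them for the KCl response, although they did not deviate together (r from -0.187 to 0.105). The fits were made without the block, and with it as an alternative. Replicates differed by more than sampling noise in every group, with a chi-square per gene of 3.07 and 2.81 between the depolarized and the resting knockdown replicates and of 8.62 to 17.9 between untreated ones. In simulated data with 12653 genes, the depolarized contrast called 52% of 2-fold and 96% of 4-fold increases and 0.112% of unchanged genes, and the difference of responses called 10% and 94%. There 50 genes were changed at each fold, drawn from those at 10 CPM or more. All groups shared 1 dispersion per gene, with no difference between experiments. These rates therefore do not cover genes of low counts, the unequal spread of the groups or a difference between experiments. DESeq2 1.42.0, the study's likelihood ratio test and other settings were run as alternatives.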

Additional observations from a re-analysis of the deposited data

Results flagged for a closer look

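The KCl response of Nr4a2 differed between knockdown and untreated inputs by 2.44 on the log2 scale in a test of the difference itself (edgeR's quasi-likelihood interaction term, FDR = 0.0126). The same test did not pass without untreated depolarized replicate 2 or 3, where the difference was 2.52 and 2.43 (FDR = 0.0692 and 0.0893). Each knockdown group held only 2 libraries. The level was higher after KCl than at rest in both experiments, in 2 of 2 knockdown and 3 of 3 untreated inputs, and the knockdown was below the untreated inputs at rest and within their range after KCl. Each KCl response compares libraries of the same processing folders, whereas the difference of responses lies between folders.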

How the results depend on the processing

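The count of 1679 genes between depolarized groups was 856 in a fit of the 5 libraries compared, 697 in a fit of 20 TurboID-PSD95 libraries and 3980 with DHPG inputs in place of untreated ones, an alternative chosen after seeing the data, and 297 to 2115 with 1 library left out. At rest the count was 513 with 20 libraries and 207 to 1546 with 1 library left out, and with DHPG inputs it was 1985. The KCl response of the knockdown gave 3663, 381 and 199 to 230 genes with the libraries compared, 20 libraries and 1 library left out, and that of untreated inputs 868, 741, 3287 (Pan-TurboID inputs added) and 1130 to 2156. The share of lower genes among those called was 53.2% and became 43.5% with the libraries compared and 40.0% with 20 libraries, while RLE scaling gave 47.0%. With 20 libraries it went from 58.9% to 68.5% for the KCl response of the knockdown and from 53.4% to 71.0% for that of untreated inputs. For the difference of responses it was 7 genes without the filter, 6 with the likelihood ratio test, 15 with DESeq2 and 0 to 3 with 1 library left out. The 5′ UTR share differed by -3.28 over all transcripts and by -3.58 over genes with enough counts, and by -4.69 to -2.10 with 1 library left out. Fits with an arm of 1 library assume that it varies like the other groups. The cause of these shifts was not tested.

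With the replicate number as a block the counts were 1166 after depolarization, 1006 at rest, 824 and 1560 for the KCl responses of knockdown and untreated inputs and 1 for their difference, and with the block within experiment 743, 1438 and 1. The number pairs resting with depolarized libraries of the untreated experiment, by processing folder, and does not pair knockdown with untreated libraries.

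With DHPG inputs as the control, 85 genes called after depolarization and 40 called at rest were called in the opposite direction, Bhlhe22 (-0.45) and Ntsr1 (-0.51) among them after depolarization, and with the transcript of the highest count 1 gene of the knockdown's KCl response was. Of the named genes compared with untreated inputs, those that changed sign had not passed the test. The log2 difference of Nr4a2 became 0.022 with RLE factors and with DESeq2, 0.018 with the libraries compared, 0.016 with 20 libraries, 0.046 with Pan-TurboID inputs and 0.0054 with the replicate block. With Pan-TurboID inputs added Egr3 became 0.017, Npas4 -0.17, Klf4 0.037, Nfil3 0.11 and Spred1 0.11. With the trend over CDS length removed Npas4 became -0.073 and Crem 0.015, and with the replicate block Crem became 0.12 and Nr4a3 0.022. With 1 library left out, Nr4a2 ran from -0.12 to 0.077, Egr3 from -0.35 to 0.0043, Npas4 from -0.19 to 0.23, Klf4 from -0.79 to 0.27, Nfil3 from -0.20 to 0.087, Spred1 from -0.32 to 0.11, Crem from -0.28 to 0.065, Nr4a3 from -0.13 to 0.002, Ier5 from -0.0009 to 0.18, Bhlhe40 from -0.019 to 0.52 and Trib1 from -0.17 to 0.29.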
